A study of Homo sapiens with 9 samples.

Results

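The genes described here are 31 targets of the transcription factor p53, taken by name from known targets, with earlier results of these data in view, out of 26871 genes present in all 3 count tables of human spinal cord organoids (SCOs). They fall into 14 members with roles in apoptosis, 4 in DNA repair, 4 in the feedback that restrains p53, and 9 in cell cycle arrest and stress responses. All 31 members passed the filter on low counts in every comparison. Poly-A RNA of whole SCOs was sequenced in bulk, with 9 libraries in all and 3 per condition. The organoids were grown from the induced pluripotent stem cell line WTC, which carries a reporter cassette at SOX10 in every condition, and several organoids of a clone were pooled per RNA sample. Of the 3 clones used by the study, 2 carry indels on the other SOX10 allele, and the labels, which give the genotype as WT, do not tie a replicate number to a clone. Vehicle SCOs received basic FGF alone (labelled FGF), VPA SCOs received FGF with valproic acid, an antiepileptic drug that inhibits histone deacetylases, and VPA+Rapamycin SCOs received in addition Rapamycin, an inhibitor of the kinase mTOR. The labels give an exposure of 96 h for each of the 9 libraries. The study's text gives another exposure for VPA-treated organoids and more than 1 VPA dose, so no dose is given here. By the study's account the libraries of a condition come from separate clones of the same line, so p-values measure the spread between clones, with any technical spread added. Same-numbered libraries share a name prefix across conditions, and whether a prefix marks a clone is not stated. The main fits did not pair libraries, so differences between clones stayed in their error. A fit with the replicate number as a block was an alternative.

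The factor p53 is held at a low level by MDM2, a ubiquitin ligase that p53 itself induces. When DNA damage or other stress releases it from MDM2, it binds response elements near its target genes and raises transcripts that halt the cell cycle, repair DNA, alter metabolism or trigger apoptosis, together with those that switch p53 off again. In the embryo, excess p53 activity is known to deplete neural crest and neural tube cells. The 3 comparisons ask how far transcripts of this pathway moved with VPA, whether Rapamycin moved them further or back, and what difference from vehicle was left with both compounds.

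Short stretches that resemble a p53 response element are shown for members with a match that passed the test in a comparison below. They let the control region be read beside the values. RefSeq promoters (GRCh38.p14, 250 bases before to 50 after a start site) were at hand for 26 of the 31 members, and PHLDA3, RRM2B, TP53INP1, GADD45A and TNFRSF10B had no entry. They were searched for the p53 response element consensus as 2 adjoining blocks of 10 bases, each with its fixed C and G in place and with up to 3 mismatches in all at the other positions. The consensus reads the same on both strands. A match was found in 8 of the 26 members (30.8%), against 373 of 27305 genes with a promoter (1.37%). The members were chosen as known p53 targets, so their higher share comes with that choice and is no result of these data. The 6 matches of members that passed the test in a comparison below are printed 5′ to 3′ on the strand of the gene, with the central 4 bases of each block in capitals.
FAS: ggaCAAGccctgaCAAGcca
AEN: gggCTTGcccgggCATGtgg
DDB2: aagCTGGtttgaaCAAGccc
MDM2: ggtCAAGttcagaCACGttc
SESN1: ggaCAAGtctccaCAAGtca
GDF15: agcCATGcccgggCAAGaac
The FAS stretch lies at chr10:88991309-88991328 (plus strand, 2 mismatches), that of AEN at chr15:88621306-88621325 (plus, 2), that of DDB2 at chr11:47214969-47214988 (plus, 1) and that of MDM2 at chr12:68808923-68808942 (plus, 2). The SESN1 stretch lies at chr6:109009018-109009037 (minus strand, 3 mismatches) and that of GDF15 at chr19:18386186-18386205 (plus, 3). All 6 are inside the interval that the count tables give for their gene. PMAIP1 and FDXR, which did not pass the test in any comparison, held the other 2 matches. BBC3, TP53BP2, EDA2R, CCNG1, ZMAT3, PLK2, PLK3, SPATA18 and BTG2 passed the test in a comparison, were searched and had no match. A match describes letters in these windows and was not measured as a binding site.

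The libraries held 15290299 to 17417338 reads counted on genes, with similar ranges in the 3 conditions. Among members the median coefficient of variation was 17.2% for vehicle, 8.52% for VPA and 8.83% for VPA+Rapamycin, and 20 of the 31 members (64.5%) varied most in vehicle, as did 60.1% of 16734 genes tested in all comparisons. Vehicle replicate 3 stood apart from the other vehicle libraries in markers such as TFAP2B, with 307 counts there and 2 in each of the others. Vehicle replicate 1 stood apart in others, such as LIN28A, with 4131 counts there and 1797 and 1575 in replicates 2 and 3. Among vehicle libraries, 16 members were highest in replicate 1, 2 in replicate 2 and 13 in replicate 3. SOX2, a neural progenitor factor, had 4021 to 5077 counts in all libraries, while the pluripotency factors POU5F1 and NANOG had at most 14. LIN28A and DPPA4, listed with them as markers of pluripotent cells, had 1336 to 4131 and 1517 to 3377 counts, and DPPA4 was lower with VPA (-0.95, adjusted p of 0.0015 by edgeR) and with both compounds (-0.74, 0.0116). In whole organoids, fewer cells of a type and less RNA per cell cannot be told apart. Levels below are counts normalized with TMM over the 9 libraries, named normalized counts.

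VPA lowered part of the p53 targets and raised none by the test. Against vehicle, 14 of 31 members (45.2%) passed the threshold (adjusted p up to 0.05, quasi-likelihood F test of edgeR) as lower and 0 as higher, whereas 32.1% of all 17360 genes tested passed, 15.7% as lower and 16.4% as higher. GDF15, a secreted stress cytokine, and SPATA18, which takes part in the removal of damaged mitochondria, each fell to about 33% of vehicle. Lower members included 5 of 14 in apoptosis, 1 of 4 in repair, 3 of 4 in feedback and 5 of 9 in stress. The median log2 fold change of the members was -0.31, beside -0.00 for all genes, with 21 estimates below 0 and 10 above. At an unadjusted p under 0.05, 16 were lower and 4 were higher, and DESeq2 called 1 member higher, BTG2. The share of all genes at that unadjusted threshold is not given, here or below, so such counts have no background beside them. The libraries of both conditions did not overlap, with VPA lower, in 17 members, and with VPA higher in 4, beside 22.6% and 24.9% of all genes. Without vehicle replicate 3, 15 members were lower and 1, APAF1, was higher. The lower count was 8 without VPA replicate 2 or without VPA replicate 3, and the higher count was 3 (BTG2, FDXR and PERP) without vehicle replicate 1.

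**Figure D1:**
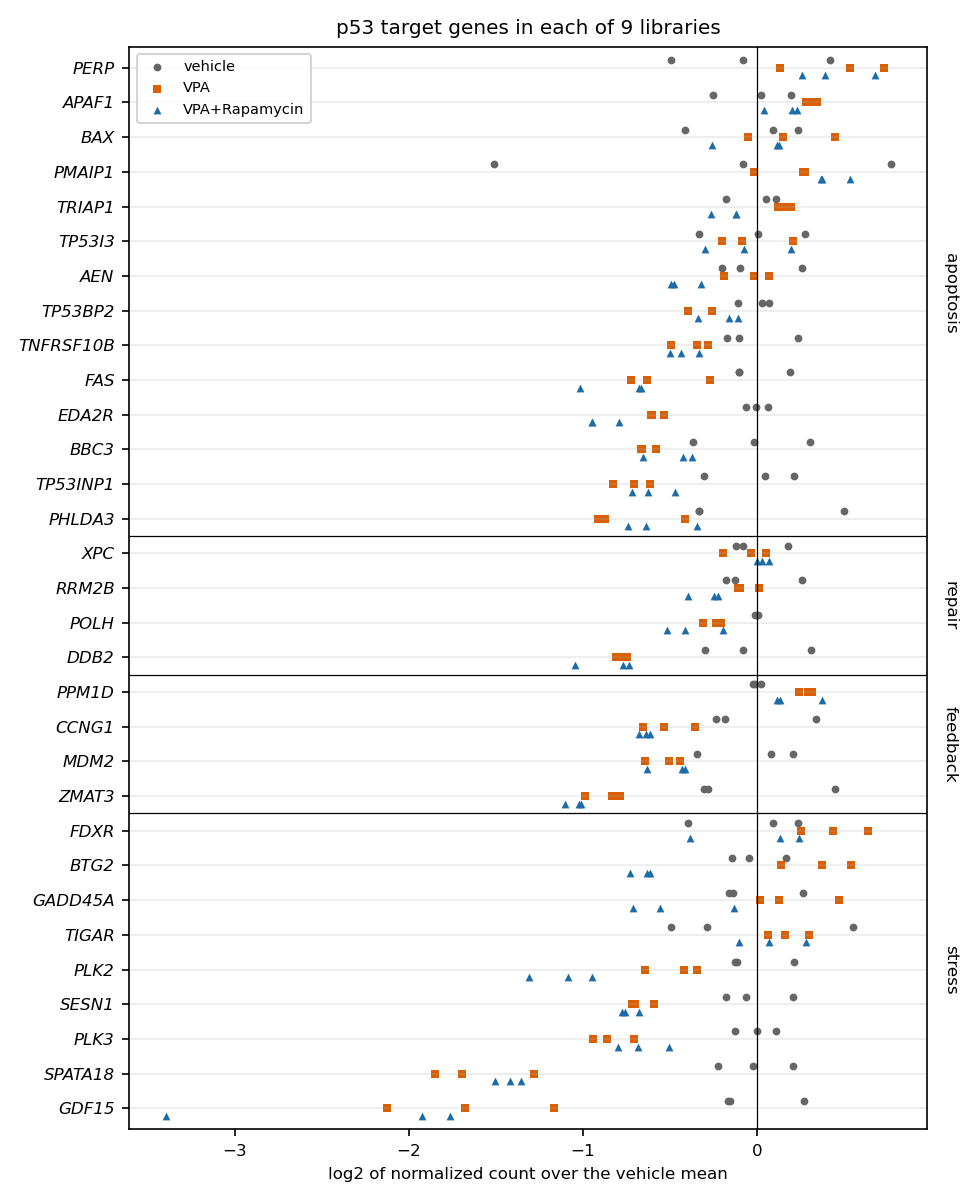
Level of each of the 31 p53 targets in each library, as the log2 of its normalized count over the vehicle mean, with members grouped by role and ordered within a role. Circles are vehicle, squares VPA and triangles VPA+Rapamycin, and for SPATA18 all 6 treated libraries lie to the left of all 3 vehicle libraries.

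Adding Rapamycin to VPA lowered 4 members and raised none by the test. BTG2, GADD45A, PLK2 and AEN were lower in VPA+Rapamycin than in VPA (12.9% of members, whereas 6.74% of 17317 genes passed, 3.73% as lower and 3.01% as higher), and 0 were higher by edgeR or by DESeq2, also at an unadjusted p under 0.05, at which 8 were lower. BTG2, which restrains cell division, fell to 49.5% of its VPA level. This comparison shares its VPA libraries with the one above. Among the 14 members lower with VPA, 0 rose when Rapamycin was added, and 6 had an estimate above 0. The median log2 fold change of the members was -0.08, beside 0.00 for all genes, with 22 estimates below 0 and 9 above. The libraries did not overlap, with VPA+Rapamycin lower, in 10 members and higher in 1, beside 13.2% and 12.3% of all genes. The count of 4 fell to 2 without VPA replicate 1 or without VPA+Rapamycin replicate 3, and to 1, BTG2, when all 9 libraries shared a single fit.

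With both compounds, 14 members (45.2%) were lower than in vehicle and 0 were higher, whereas 19.0% of 17383 genes passed, 9.22% as lower and 9.81% as higher. They were 4 of 14 in apoptosis, 1 of 4 in repair, 3 of 4 in feedback and 6 of 9 in stress. The median log2 fold change of the members was -0.45, beside -0.00 for all genes, with 24 estimates below 0 and 7 above. At an unadjusted p under 0.05, 19 were lower and 0 higher, and DESeq2 called 0 higher. In 19 members the VPA+Rapamycin libraries all lay below the vehicle libraries, and in 1 all lay above, beside 18.2% and 20.3% of all genes. Without VPA+Rapamycin replicate 1 the lower count was 8, and without vehicle replicate 3 it was 16. This comparison shares its vehicle libraries with the VPA comparison, so that the 12 members lower in both are no independent repeat. PLK2 was the member lower in all 3 comparisons, and 13 members passed the test in none.

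**Figure D2:**
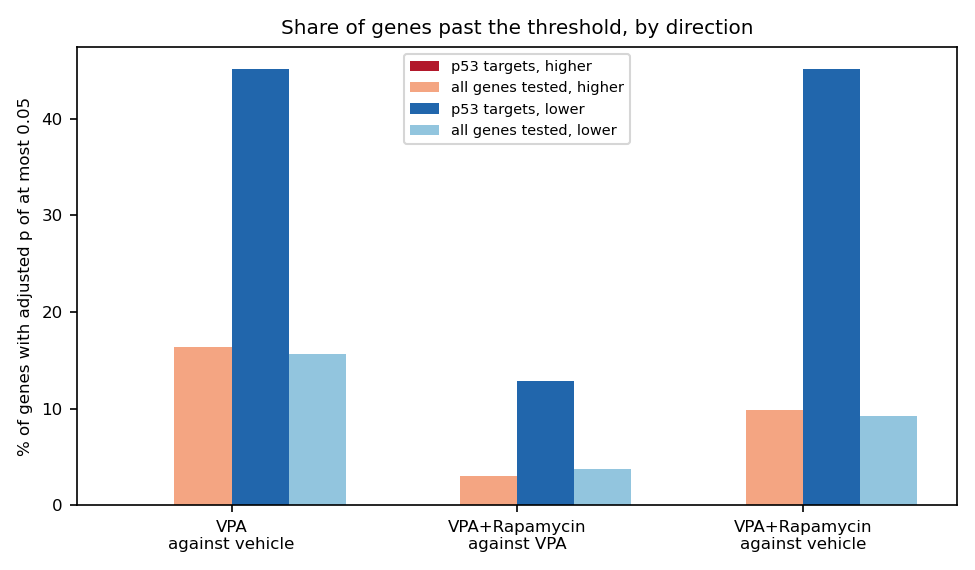
Percentage of genes past an adjusted p of 0.05, in each direction, among the 31 p53 targets and among all genes tested, for the 3 comparisons. The dark bars for lower p53 targets reach 45.2%, 12.9% and 45.2%, beside 15.7%, 3.73% and 9.22% of all genes, and no bar stands for higher p53 targets because their count was 0.

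**Figure D3:**
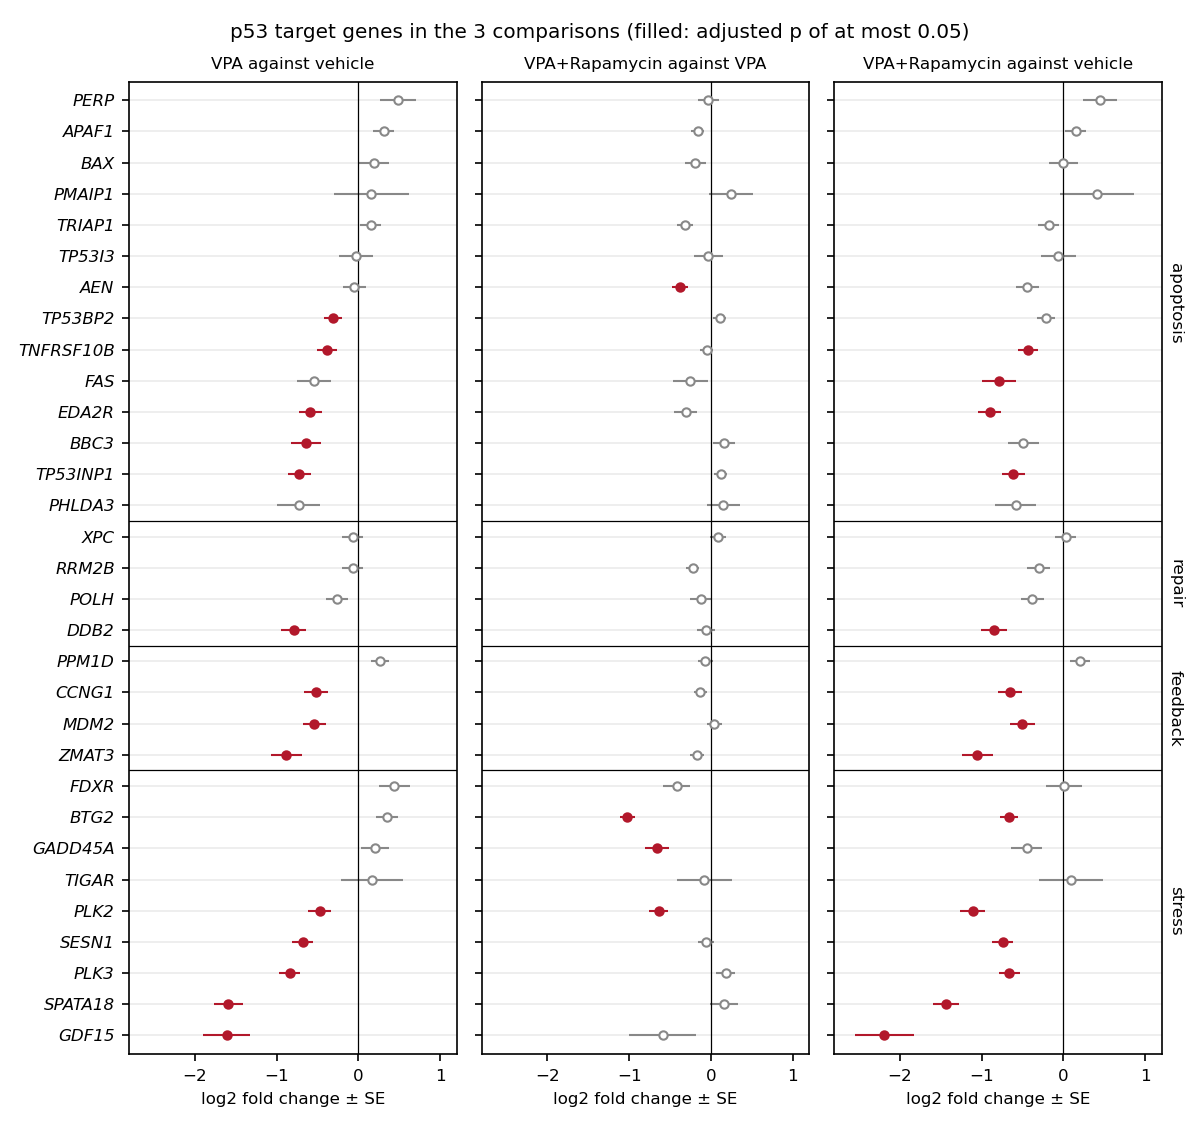
Log2 fold change ± SE of the 31 members in each comparison, by role, with filled points for an adjusted p of at most 0.05 (edgeR). The filled points all lie below 0, and BTG2 changes side between the left and the middle panel.

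Death receptors and their relatives made up the first apoptosis group. TNFRSF10B encodes DR5, a receptor for the death ligand TRAIL, and had 4462, 3523 and 3362 normalized counts in vehicle, 2977, 2691 and 3109 in VPA, and 3008, 2802 and 2678 in VPA+Rapamycin. The vehicle libraries were all above the treated ones, which overlapped each other. The log2 fold change was -0.38 ± 0.12 (SE, adjusted p of 0.0327) with VPA and -0.43 ± 0.12 (0.034) with both compounds against vehicle. These were small changes, and both calls ended without vehicle replicate 1 (adjusted p of 0.0591 and 0.0523), without vehicle replicate 2 (0.0565 and 0.0689) and when any single treated library was left out (up to 0.158 and 0.142). EDA2R, a receptor of the tumour necrosis factor family, had 357, 343 and 374 normalized counts in vehicle, 235, 247 and 236 in VPA and 186, 186 and 207 in VPA+Rapamycin. Its 3 groups did not overlap and stepped down in that order. Against vehicle it was lower by edgeR with VPA, at -0.59 ± 0.14 (adjusted p of 0.00719), and with both, at -0.90 ± 0.14 (0.00256), while the step between VPA and VPA+Rapamycin, -0.31 ± 0.14, did not pass (0.197). FAS, the receptor of FAS ligand, had 169, 138 and 138 normalized counts in vehicle, 123, 89.7 and 95.7 in VPA and 93.3, 73.1 and 92.6 in VPA+Rapamycin. All treated libraries were below the vehicle libraries, but VPA did not pass the test (-0.54 ± 0.21, adjusted p of 0.0688) and VPA+Rapamycin did (-0.79 ± 0.21, 0.0229). The latter call ended without vehicle replicate 2 (0.0551) or without VPA+Rapamycin replicate 1 (0.0652), 2 (0.0985) or 3 (0.0641). FAS shares 380 of its 4253 exon bases with ACTA2 on the opposite strand, whose count was 110% of that of FAS, and TNFRSF10B shares 67 with RHOBTB2, at 19.4% of its count. Whether strand was used in counting is not given in the sources used here, and the library kit does not mark strand, so a part of these reads can belong to the neighbours.

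The BCL-2 family members, which act at the mitochondrion, differed from each other. BBC3 encodes PUMA, a BH3-only activator of apoptosis, and had 408, 326 and 256 normalized counts in vehicle, 209, 208 and 221 in VPA and 210, 255 and 246 in VPA+Rapamycin. Vehicle was spread widely and still lay above every treated library. BBC3 was lower with VPA (log2 fold change of -0.64 ± 0.18, adjusted p of 0.0185), but not by the test with both compounds (-0.49 ± 0.19, 0.0907). The VPA call ended without vehicle replicate 2 (0.052) or without VPA replicate 1 (0.071), 2 (0.0734) or 3 (0.0568). PMAIP1 encodes NOXA, another BH3-only protein, and was scarce, with 38.1, 14.1 and 68.5 normalized counts in vehicle, 48.3, 39.7 and 48.8 in VPA and 52.1, 51.9 and 58.3 in VPA+Rapamycin. The vehicle libraries enclosed all the others, and the estimate with VPA, 0.16, had a 95% interval from -0.83 to 1.16. BAX, the pore-forming effector, had 566, 513 and 360 normalized counts in vehicle, 464, 533 and 655 in VPA and 525, 521 and 401 in VPA+Rapamycin. The groups overlapped throughout, and the log2 fold change with VPA was 0.19 (95% interval from -0.21 to 0.59, adjusted p of 0.455).

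Of the other apoptosis members, 3 passed the test in a comparison. TP53INP1, which promotes p53 phosphorylation and autophagy, had 1597, 2034 and 2285 normalized counts in vehicle, 1210, 1288 and 1112 in VPA and 1280, 1199 and 1426 in VPA+Rapamycin. Every vehicle library was above every treated one, and the treated groups overlapped. It was lower by edgeR with VPA (-0.72 ± 0.14, adjusted p of 0.00255) and with both (-0.61 ± 0.14, 0.0145). The second call ended without vehicle replicate 2 (0.0582) or without VPA+Rapamycin replicate 1 (0.0693) or 2 (0.0735). TP53BP2 encodes ASPP2, which steers p53 toward apoptotic targets, and had 1206, 1328 and 1364 normalized counts in vehicle, 1088, 1087 and 986 in VPA and 1207, 1027 and 1165 in VPA+Rapamycin. VPA and vehicle did not overlap, and their difference of -0.31 ± 0.11 passed narrowly (adjusted p of 0.0453). That call ended in 8 of 12 alternatives, with adjusted p up to 0.179, including the fits without vehicle replicate 2 (0.141) or 3 (0.0544), without VPA replicate 1 (0.115), 2 (0.124) or 3 (0.179), and with the replicate block (0.114). AEN, an apoptosis-enhancing nuclease, had 786, 571 and 614 normalized counts in vehicle, 650, 577 and 689 in VPA and 527, 472 and 467 in VPA+Rapamycin. Vehicle and VPA overlapped, and VPA+Rapamycin lay below both. AEN was lower in VPA+Rapamycin than in VPA (-0.38 ± 0.10, adjusted p of 0.0303), and against vehicle the difference of -0.44 ± 0.14 did not pass (0.0568; 0.033 with the replicate block). The call against VPA ended without VPA replicate 1 (0.0944) or 3 (0.109), without VPA+Rapamycin replicate 2 (0.0681) or 3 (0.113) and when all 9 libraries shared a single fit (0.22).

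The remaining 5 apoptosis members, like PMAIP1 and BAX, passed in no comparison. PHLDA3, an inhibitor of AKT signalling, came closest, with a log2 fold change of -0.73 ± 0.26 with VPA and an adjusted p of 0.0504 by edgeR. Its VPA libraries, at 106, 103 and 146 normalized counts, were below those of vehicle, at 275, 154 and 154. It passed as lower in 5 of 12 alternatives, among them DESeq2 (0.034) and the fits of all 9 libraries (0.0305) or without vehicle replicate 3 (0.00894), and the estimate ran from -0.91 to -0.39 when libraries were left out. PERP, a desmosomal membrane protein, and APAF1, the scaffold of the apoptosome, had estimates above 0 with VPA, 0.48 ± 0.22 (adjusted p of 0.116) and 0.31 ± 0.13 (0.0892). PERP passed as higher without vehicle replicate 1, with the replicate block and without the filter on low counts (adjusted p down to 0.00633), and APAF1 without vehicle replicate 3 (0.0074). TRIAP1, an inhibitor of apoptosis, had its largest estimate in VPA+Rapamycin against VPA, -0.32 ± 0.10 (adjusted p of 0.0535). For TP53I3, an oxidoreductase, the estimates of the 3 comparisons ranged from -0.06 to -0.03, and it overlaps FAM228B, whose count was 70.9% of its own. TP53INP1 overlaps NDUFAF6, at 12.9% of its count, with 0 exon bases shared.

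Among the repair members, DDB2 changed and the other 3 did not pass. DDB2 recognises ultraviolet damage for nucleotide excision repair and had 1007, 769 and 662 normalized counts in vehicle, 484, 469 and 464 in VPA and 477, 488 and 395 in VPA+Rapamycin. The treated libraries were close to each other and all below vehicle. It was lower by edgeR with VPA (-0.79 ± 0.15, adjusted p of 0.0027) and with both compounds (-0.85 ± 0.16, 0.00629), and the addition of Rapamycin gave -0.06 ± 0.11. Both calls held in each of the 12 alternative fits. XPC, its partner in damage recognition, had estimates of -0.07, 0.09 and 0.03 in the 3 comparisons, and LSM3 overlaps it at 85.8% of its count. RRM2B, a ribonucleotide reductase subunit that supplies nucleotides for repair, had -0.07, -0.22 and -0.30. POLH, a polymerase that copies past ultraviolet lesions, had -0.26, -0.12 and -0.38, and GTPBP2 overlaps it at 320% of its count and POLH-AS1 at 16.6%.

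Among the feedback members, MDM2, CCNG1 and ZMAT3 fell and PPM1D did not. MDM2 had 1165, 1562 and 1702 normalized counts in vehicle, 1088, 947 and 1041 in VPA and 1096, 954 and 1111 in VPA+Rapamycin. Vehicle replicate 1 was near the treated libraries and above all of them. The log2 fold change was -0.54 ± 0.14 with VPA (adjusted p of 0.0153) and -0.50 ± 0.15 with both (0.038). The first call ended without vehicle replicate 2 (0.0658) or without VPA replicate 2 (0.0822) or 3 (0.0579), and the second without vehicle replicate 2 (0.128) or 3 (0.051) or without VPA+Rapamycin replicate 1 (0.108), 2 (0.153) or 3 (0.0923). CCNG1 encodes cyclin G1, which recruits a phosphatase to MDM2, and had 5901, 6123 and 8796 normalized counts in vehicle, 5424, 4796 and 4419 in VPA and 4340, 4531 and 4458 in VPA+Rapamycin. Vehicle replicate 3 was the highest, and all treated libraries were below vehicle. The log2 fold change was -0.52 ± 0.15 with VPA (adjusted p of 0.0225) and -0.65 ± 0.15 with both (0.013), and without vehicle replicate 3 it was -0.31 (0.0186) and -0.44 (0.00425). The calls ended without VPA replicate 2 (0.087) or 3 (0.107), and without VPA+Rapamycin replicate 1 (0.0642) or 3 (0.0528). ZMAT3, an RNA-binding zinc finger protein, had 1294, 1271 and 2146 normalized counts in vehicle, 909, 791 and 883 in VPA and 733, 774 and 780 in VPA+Rapamycin. The 3 groups did not overlap. Its log2 fold change was -0.88 ± 0.19 with VPA (adjusted p of 0.00492) and -1.05 ± 0.19 with both (0.00422), and -0.58 (0.000398) and -0.76 (0.000227) without vehicle replicate 3, which was the highest. PPM1D encodes WIP1, a phosphatase that inactivates p53, and went against the others, with 731, 755 and 737 normalized counts in vehicle, 875, 925 and 908 in VPA and 959, 813 and 803 in VPA+Rapamycin. The treated libraries were all above vehicle, and neither estimate passed the test (0.27 ± 0.11, adjusted p of 0.0686, and 0.20 ± 0.12, 0.252). With upper-quartile normalization PPM1D passed as higher with VPA (0.0437).

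**Figure D4:**
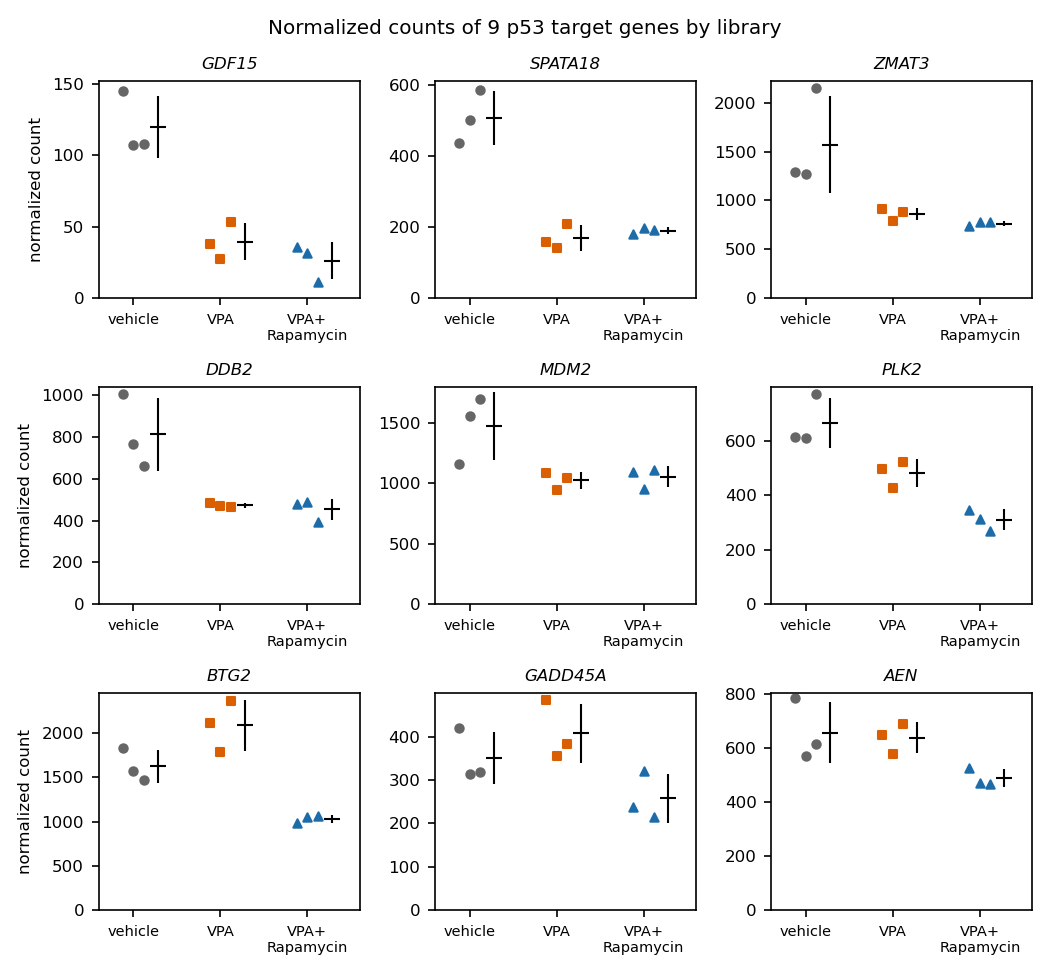
Normalized counts of 9 p53 targets in each library, with replicates 1 to 3 from left to right and, beside each group, the mean ± SD (n = 3), on axes that start at 0. GDF15, SPATA18, ZMAT3, DDB2 and MDM2 are below vehicle with VPA and with VPA+Rapamycin, PLK2 steps down in each group, and BTG2 is highest in VPA and lowest in VPA+Rapamycin.

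The stress and arrest members held the largest changes. GDF15 (chr19:18374731-18389176, plus strand, GRCh38) had 145, 107 and 108 normalized counts in vehicle, 37.5, 27.5 and 53.5 in VPA and 35.4, 31.7 and 11.4 in VPA+Rapamycin. Every treated library was below every vehicle library, and the treated groups overlapped. The mean fell from 120 ± 21.5 (SD, n = 3) to 39.5 ± 13.1 with VPA and 26.2 ± 12.9 with both, log2 fold changes of -1.61 ± 0.29 (adjusted p of 0.00191) and -2.19 ± 0.36 (0.00292). SPATA18 (chr4:52051331-52097292, plus strand) had 435, 500 and 586 normalized counts in vehicle, 157, 141 and 209 in VPA and 179, 198 and 190 in VPA+Rapamycin. Its treated libraries again lay together, far below vehicle. It was lower by edgeR at -1.59 ± 0.18 with VPA (adjusted p of 0.000154) and at -1.43 ± 0.16 with both (0.000343), and the addition of Rapamycin gave 0.16 ± 0.17. SESN1, a sestrin that restrains mTOR complex signalling, had 709, 768 and 926 normalized counts in vehicle, 532, 487 and 493 in VPA and 502, 468 and 474 in VPA+Rapamycin. All treated libraries were below vehicle, and the log2 fold change was -0.68 ± 0.13 with VPA (adjusted p of 0.00298) and -0.74 ± 0.13 with both (0.00436). These 6 calls held in each of the 12 alternative fits.

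The polo-like kinases PLK2 and PLK3, which act in stress checkpoints, separated when Rapamycin was added. PLK2 had 613, 608 and 770 normalized counts in vehicle, 497, 425 and 523 in VPA and 345, 313 and 268 in VPA+Rapamycin. The 3 groups did not overlap, and each was below the one before. Its log2 fold change was -0.47 ± 0.14 with VPA (adjusted p of 0.0251), -0.64 ± 0.12 for Rapamycin added to VPA (0.00364) and -1.11 ± 0.15 with both against vehicle (0.00116). The VPA call ended without VPA replicate 1 (0.076), 2 (0.128) or 3 (0.0527), and the Rapamycin call when all 9 libraries shared a single fit (0.063). PLK3 had 676, 574 and 626 normalized counts in vehicle, 384, 325 and 344 in VPA and 360, 441 and 390 in VPA+Rapamycin. Its treated groups overlapped and were both below vehicle, at -0.84 ± 0.13 with VPA (adjusted p of 0.000764) and -0.66 ± 0.13 with both (0.00763), and the addition of Rapamycin gave 0.18 ± 0.12 (0.399). The call with both ended without VPA+Rapamycin replicate 1 (0.0524).

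BTG2 and GADD45A took another course. BTG2 had 1828, 1575 and 1473 normalized counts in vehicle, 2111, 1788 and 2369 in VPA and 983, 1049 and 1063 in VPA+Rapamycin. VPA overlapped vehicle at its lowest library, and VPA+Rapamycin lay below both groups. The estimate with VPA was above 0 and narrowly missed the threshold (0.35 ± 0.13, adjusted p of 0.0547), and passed in 6 of 12 alternatives, among them DESeq2 (0.0398) and the fits without vehicle replicate 1 (0.0108) or without VPA replicate 2 (0.0474). For Rapamycin added to VPA the log2 fold change of BTG2 was -1.02 ± 0.09 (adjusted p of 2.15e-06), and VPA+Rapamycin was also below vehicle (-0.66 ± 0.11, 0.00371). Both of these calls held in each of the 12 alternative fits. GADD45A, which links growth arrest with repair, had 420, 313 and 318 normalized counts in vehicle, 485, 354 and 382 in VPA and 238, 320 and 214 in VPA+Rapamycin. VPA overlapped vehicle and lay above every VPA+Rapamycin library. GADD45A was lower in VPA+Rapamycin than in VPA (-0.66 ± 0.15, adjusted p of 0.0136), while the difference of -0.45 ± 0.19 from vehicle did not pass (0.118). That call ended without VPA replicate 1 (0.097), without VPA+Rapamycin replicate 3 (0.0778) and when all 9 libraries shared a single fit (0.118). FDXR, a mitochondrial ferredoxin reductase, had 0.44 ± 0.19 with VPA (adjusted p of 0.101) and -0.42 ± 0.17 for Rapamycin added to VPA (0.138). TIGAR, a regulator of glycolysis, was scarce, with 19.5 to 40.2 normalized counts, and passed in no comparison.

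Per length, the members spanned a wide range of levels. Mean FPKM in vehicle, as the authors computed it, ran from 0.413 for TIGAR to 136 for CCNG1, with a median of 7.18. CCNG1 (136 ± 32.6, SD, n = 3) was followed by TNFRSF10B (44.3 ± 6.68), BTG2 (35.6 ± 3.77), TRIAP1 (21.0 ± 2.28) and TP53INP1 (21.0 ± 3.86). The ranges of mean ± SD overlapped for TNFRSF10B and BTG2, and for TRIAP1 and TP53INP1. All genes were measured in the same 3 libraries, and their order within a library was not compared. The lowest were FAS (2.11 ± 0.242), PMAIP1 (1.09 ± 0.746) and TIGAR (0.413 ± 0.168). The members that fell with VPA included CCNG1, at the top of this order, and GDF15 (3.47 ± 0.602), near its end. BTG2 stood at 45.4 ± 6.31 FPKM in VPA and 22.4 ± 0.899 in VPA+Rapamycin.

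MDM4 and CDKN1A, which are no members of the list, were also lower in the treated libraries. MDM4, the partner of MDM2 in restraining p53, had 1603, 1911 and 1886 normalized counts in vehicle, 1216, 1090 and 1190 in VPA and 1095, 1302 and 1426 in VPA+Rapamycin. All treated libraries were below vehicle, at -0.64 ± 0.11 with VPA (adjusted p of 0.00166) and -0.51 ± 0.13 with both (0.0203), and the second call passed in 9 of 12 alternatives, with adjusted p up to 0.108. CDKN1A, which encodes the cyclin-dependent kinase inhibitor p21 and is the classical p53 target in cell cycle arrest, had 1132, 894 and 976 normalized counts in vehicle, 617, 523 and 658 in VPA and 396, 460 and 315 in VPA+Rapamycin. Its groups stepped down without overlap, as in PLK2, with log2 fold changes of -0.75 ± 0.13 with VPA (adjusted p of 0.00188), -0.61 ± 0.13 for Rapamycin added to VPA (0.00722) and -1.37 ± 0.16 with both (0.00048). Of these, the call for Rapamycin added to VPA ended when all 9 libraries shared a single fit (0.0785).

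A further list of 32 p53 target genes, CDKN1A among them, was counted in the same fits, and 30 of these were tested. With VPA 8 were lower (26.7%) and 4 higher (13.3%) than in vehicle, beside 15.7% and 16.4% of all genes. With Rapamycin added to VPA 4 were lower (13.3%) and 0 higher, beside 3.73% and 3.01%, and with both compounds 8 were lower (26.7%) and 0 higher, beside 9.22% and 9.81%. At an unadjusted p under 0.05, 0 and 1 were higher in the latter comparisons, and DESeq2 called 0 in either. The higher ones with VPA were SESN2 (log2 fold change of 0.56, adjusted p of 0.0201), DRAM1 (0.73, 0.00581), ATF3 (0.74, 0.0171) and KITLG (0.83, 0.015). DRAM1 passed in each of the 12 alternatives. SESN2, ATF3 and KITLG each passed in 9, with adjusted p by edgeR up to 0.105, 0.0688 and 0.0662 when a library was left out. Of these, SESN2, a stress-induced sestrin, and DRAM1, a lysosomal protein of autophagy, were lower again when Rapamycin was added (-0.42, adjusted p of 0.0346, and -0.53, 0.0447). Each of these calls passed in 7 of 12 alternatives and ended when all 9 libraries shared a single fit (0.235 and 0.187) and in some fits that left out a library (up to 0.164 and 0.167), and the DRAM1 libraries overlapped. TRIM22, an antiviral ubiquitin ligase, had 118, 144 and 100 normalized counts in vehicle, 52.3, 76.4 and 79.8 in VPA and 39.3, 49.0 and 45.8 in VPA+Rapamycin. Its 3 groups did not overlap, and it was lower with both compounds at -1.44 ± 0.24 (adjusted p of 0.00333) and with VPA at -0.80 ± 0.25 (0.0287), the latter in 8 of 12 alternatives. The median log2 fold change of the list was -0.02, -0.13 and -0.14 in the 3 comparisons, closer to 0 than the -0.31, -0.08 and -0.45 of the members in the first and the third.

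Of the 22 regulators of p53, 21 were tested, and with VPA 5 were higher (23.8%) and 4 lower (19.0%), near the 16.4% and 15.7% of all genes. CHEK2, a checkpoint kinase (0.65, adjusted p of 0.0122), PRKDC, a kinase of double-strand break repair (0.39, 0.0128), HDAC1 (0.32, 0.0277), HIPK2 (0.30, 0.0448) and CDKN2A were higher. CREBBP and EP300, acetyltransferases that act on p53 (-0.55, adjusted p of 0.00194, and -0.35, 0.0239), the damage kinase ATM (-0.47, 0.00986) and MDM4 were lower. With the replicate block the calls of HDAC1 (0.0701), HIPK2 (0.0764) and EP300 (0.0531) ended, and they passed in 7, 6 and 8 of 12 alternatives. CDKN2A, the locus of p16 and of the MDM2 inhibitor ARF, was near the floor of the data, with 3, 10 and 0 counts in vehicle, 16, 26 and 22 in VPA and 21, 30 and 4 in VPA+Rapamycin. Vehicle and VPA did not overlap, and their log2 fold change was 2.18 ± 0.76 (0.0465), which passed in 5 of 11 alternatives and, without vehicle replicate 3, no longer did (0.0619). With Rapamycin added to VPA, CHEK2 was lower (-0.38, 0.0167, passing in 8 of 12 alternatives) and 0 were higher, with 1 higher at an unadjusted p under 0.05 and 0 by DESeq2. Against vehicle, VPA+Rapamycin had HIPK2 higher (0.43, 0.0213) and MDM4 and CREBBP lower.

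Other stress programmes were counted in the same fits. Of 10 integrated stress response genes, which ATF4 controls when translation is impaired, 2 were higher and 3 lower with VPA, 3 were lower when Rapamycin was added, and 1 was higher and 4 lower with both against vehicle. DDIT3, the death-promoting factor CHOP, was lower with VPA (-1.08 ± 0.35, adjusted p of 0.0359) while TRIB3, a pseudokinase, was higher (1.49 ± 0.16, 8.96e-05). Immediate early genes, which respond to growth factors and stress, were higher with VPA in 9 of 10 and lower in 9 of 10 when Rapamycin was added. Beside these counts, 16.4% of all genes were higher and 15.7% lower with VPA, and 3.73% were lower when Rapamycin was added. With both compounds against vehicle, 9.81% of all genes were higher and 9.22% lower. ATF3 belongs to the immediate early genes and to the p53 targets counted above. The estimates for BTG2 and GADD45A were above 0 with VPA and below 0 when Rapamycin was added, and for both genes the second alone passed the test. These comparisons share the VPA libraries. The same signs, without a call, were found for FDXR (0.44 and -0.42), APAF1 (0.31 and -0.16), BAX (0.19 and -0.19), TRIAP1 (0.15 and -0.32), PPM1D, PERP and TIGAR. PMAIP1 was above 0 in both (0.16 and 0.25). A link of these members with the immediate early genes was not tested.

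Cell type markers also moved between conditions. Neuronal markers, 8 genes, summed to 18331 to 30903 normalized counts in vehicle, 16522 to 18054 in VPA and 17762 to 18902 in VPA+Rapamycin, with 4 lower and 1 higher with VPA. Neural crest markers summed to 4753 to 5275, 3605 to 4407 and 4363 to 5373. NGFR (means of 2252, 2267 and 2707) and SOX9 (1868, 1412 and 1681) made up most of these sums. With both compounds against vehicle, SOX10 was lower and ERBB3 higher. Of 7 neural crest markers tested, 4 were lower with VPA (SOX10, FOXD3, TFAP2A and SOX9) and 1, ERBB3, was higher (1.29, adjusted p of 0.000219 by edgeR). SOX10, their defining factor, had 347, 248 and 230 counts in vehicle, 5, 10 and 9 in VPA and 8, 37 and 63 in VPA+Rapamycin. Mesenchymal markers summed to 2279 to 4875, 9223 to 11811 and 4025 to 6111, with PRRX1 and DCN at 0 in vehicle replicates 1 and 2. Of 7 tested, 2 were higher with VPA, COL1A1 and COL1A2, while 3 estimates were below 0, and 5 were lower when Rapamycin was added. Neural progenitor markers summed to 60231 to 63060, 57851 to 60134 and 52377 to 61389, with 1 higher and 2 lower with VPA. Markers of cycling cells summed to 33083 to 38412, 36865 to 38844 and 30276 to 34334, with 5 of 8 lower when Rapamycin was added, and posterior HOX genes to 11838 to 21071, 8775 to 11508 and 10073 to 13462. Epithelial markers summed to 152 to 866, 551 to 1003 and 409 to 683, and those of endothelium and blood to at most 112 in any library. When Rapamycin was added, 2 neuronal markers (DCX and ELAVL4) and 2 neural crest markers (SOX10 and FOXD3) were higher. So were 3 HOX genes (HOXB5, HOXB8 and HOXC8) and the progenitor marker NKX6-1, while the progenitor marker HES5 was lower. Of the 8 HOX genes, 7 were lower with VPA and 6 with both compounds against vehicle. Beside these marker counts, 16.4% of all genes were higher and 15.7% lower with VPA. The shares were 3.01% and 3.73% when Rapamycin was added, and 9.81% and 9.22% with both against vehicle. The part of the marker shifts in the p53 target values was not tested.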

How the data were processed

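Bulk RNA sequencing covered 9 SCO libraries, 3 for each of vehicle, VPA and VPA+Rapamycin, grouped by the sample labels. Poly-A RNA was primed with random hexamers, and the submitters' processing notes name HISAT2 2.0.5 and featureCounts 1.5.0-p3. The authors deposited raw counts per gene, without normalization, in a table for each of the 3 pairs of conditions, with coordinates on GRCh38. The deposited FPKM values, counts per length and depth by the authors, were used for levels across genes only. A further 18 normalized columns and 6 group means were not used, nor were the columns of the authors' own fold changes and p-values.

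Differences were tested with edgeR 4.0.16 under R 4.3.3 (TMM, filterByExpr, quasi-likelihood F test over all genes of a table, Benjamini and Hochberg adjustment, threshold of 0.05). The standard error came from the estimate and its F statistic. An exact permutation test of 3 against 3 libraries cannot give a two-sided p under 0.1 and was not used for calls. Alternatives were a joint fit of all 9 libraries, the replicate number as a block, DESeq2 1.42.0, upper-quartile scaling, no filter or a minimum of 10 counts per library, a minimum change of 1 on the log2 scale, and the omission of each library in turn. The minimum change is not among the 12 alternatives counted for a gene. Where a group is left with 2 libraries, the spread is shared with the other group. At these depths, 3 counts correspond to 0.172 to 0.196 CPM, and this floor covers counting error only.

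Tested on simulated data drawn from VPA against vehicle (17360 genes, 200 of them changed 2-fold), edgeR recovered 54.5% of the changed genes, 7.63% of its calls were false and 0 had a wrong sign. The corresponding shares for DESeq2 were 58% and 15.9%. In the data 32.1% of genes passed for VPA against vehicle, and most called members changed by less than 2-fold. The simulated shares therefore do not give the recovery or the false share of the member calls. Replicates of a condition differed by more than sampling noise. Gene overlaps were taken from GENCODE 29, in which all 31 members have the start and end of the tables, and an overlapping gene above 10% of a member's count is named. Members that passed in a comparison are given in every library, as are MDM2, BBC3, PMAIP1, BAX, CCNG1 and GDF15 in any case, and of the other p53 target genes and regulators MDM4, CDKN1A and those that passed with a change of 1 or more on the log2 scale. A further gene that the rule names is not reported here. The values of PPM1D, PHLDA3 and XPC, and of further genes, were added once the results had been seen. The members and gene lists were chosen with earlier results of these data known.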

Additional observations from a re-analysis of the deposited data

How the results depend on the processing

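Deviations of same-numbered libraries correlated weakly (from -0.0564 to 0.146, not all over 0.1), and the numbers were not used as pairs in the main fits. For VPA+Rapamycin against vehicle the same-numbered values were 0.096, 0.0539 and 0.146, and those of different numbers ran from -0.163 to 0.0633. Such correlations over many genes cannot exclude pairing. With the replicate block, 1 member (PERP) was higher with VPA and 1 with VPA+Rapamycin against vehicle, 1 further p53 target and 3 regulators were higher with both compounds against vehicle, TP53BP2 and the regulators HDAC1, HIPK2 and EP300 lost their VPA calls, and all genes called numbered 4965, 1244 and 4040, against 5568, 1168 and 3307 without it.

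Members higher with VPA numbered 1 with DESeq2 or all 9 libraries in a single fit and 2 without the filter or with upper-quartile normalization. In the single fit, members lower when Rapamycin was added numbered 1, further targets lower 0, regulators lower 0, and with both compounds against vehicle 3 regulators were higher and 4 lower. In that fit 113 of all genes passed for Rapamycin added to VPA, against 1168. DESeq2 had 2 regulators lower when Rapamycin was added, and without the filter 1 further target was higher with both. With a minimum change of 1 on the log2 scale, which leaves out smaller changes by construction, lower members numbered 2, 1 and 4 in the 3 comparisons, further targets 0 higher and 0 lower, 0 lower, and 2 lower, and regulators 1 higher and 0 lower, 0 lower, and 0 higher and 0 lower.

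Leaving out each library in turn gave 0 to 3 members higher and 8 to 15 lower with VPA, 0 higher and 2 to 4 lower when Rapamycin was added, and 0 to 1 higher and 8 to 16 lower with both. Further targets ran from 1 to 6 higher and 4 to 8 lower, 0 higher and 2 to 3 lower, and 0 to 1 higher and 4 to 8 lower. Regulators ran from 0 to 5 higher and 3 to 5 lower, 0 higher and 0 to 2 lower, and 0 to 2 higher and 0 to 5 lower. Genes called overall ranged from 3390 to 6710, 472 to 1203 and 1295 to 4314. No direction of a called member reversed in any alternative. Of the calls, 8 of 14, 1 of 4 and 8 of 14 passed in each of the 12 alternative fits, which do not include the minimum change. Except where stated, the cause was not tested. The 95% intervals for the log2 fold change with VPA ran from -0.83 to 1.16 for PMAIP1 and from -0.67 to 1.01 for TIGAR, both low in counts, whose coefficients of variation were 67.7% and 40.8% in vehicle and 11.2% and 8.43% in VPA.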
